A study of Homo sapiens with 18 samples.

Results

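Cells that received 1.25 µM IMD-0354 for 24 h were set beside cells that received 0.63 µM, about 2-fold less, for 48 h, each against its own untreated cells. All were A375, an established human melanoma cell line that carries an activating BRAF mutation. The comparison used 12 of the 18 libraries of the series, 3 in each of 4 groups: untreated at 24 h, 1.25 µM at 24 h, untreated at 48 h, and 0.63 µM at 48 h. The libraries were taken by their labels and not by their values, and the 2 effects had no library in common. Earlier results of these data were known when the libraries, gene lists and tests were chosen. Cells were plated, left overnight and then exposed in 6-well plates. No vehicle is named for the untreated cells. Whether the 3 libraries of a group are separate cultures is not stated, and p-values therefore measure only how these libraries spread, which may be technical. Dose and time were changed together, so their parts in any difference cannot be told apart. The product of concentration and time was nearly equal, at 30.0 µM·h for the shorter exposure and 30.24 µM·h for the longer.

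IMD-0354 is described as an inhibitor of IKKβ, the kinase that marks IκBα for destruction and so frees NF-κB to enter the nucleus. A cell under nutrient, mitochondrial or endoplasmic reticulum stress slows translation by phosphorylating eIF2α, while the mRNA of the transcription factor ATF4 is then translated better. ATF4 and its partners switch on genes for amino acid supply, redox defence and, when stress persists, the factor CHOP (DDIT3); this program is the integrated stress response. A cell that leaves the cycle lowers the genes of DNA replication, driven by E2F factors, and those of mitosis, which the DREAM and MMB-FOXM1 complexes control through a promoter element called the cell cycle homology region.

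Each library was made with a QuantSeq 3' kit, which primes on poly(A) tails, and the values are TPM, a level per transcript length scaled to a common library sum, so sequencing depth is unknown. Between 14950 and 17029 genes were above 0 in a library, and pairs of libraries correlated with r of 0.866 to 0.956 across genes. No 2 libraries were identical. The untreated 24 h group was the least even, with mean correlations to its own group of 0.907 (replicate 2) to 0.929, against 0.933 to 0.953 in the other groups. Of the melanoma and neural crest markers, SOX10 was at 8.29 to 34.72 TPM and MITF at 2.87 to 16.8 TPM over the 12 libraries, while the pigment cell markers PMEL, MLANA and DCT reached at most 0.7, 2.05 and 1.46 TPM and TYR was at 0. The summed melanoma markers were at 33.89 to 38.57 TPM in untreated 48 h cells and 18.08 to 21.60 TPM after 0.63 µM, against 24.45 to 60.99 TPM and 37.32 to 41.92 TPM at 24 h. Endothelial markers reached at most 0.2 TPM. Of the keratinocyte markers KRT10 was present at 27.65 to 102.57 TPM, and it rose at 1.25 µM (1.00 on the log2 scale defined below). The summed immune markers were at 0 to 3.19 TPM untreated and 2.61 to 3.72 TPM treated at 24 h, and at 0 to 2.14 TPM and 2.98 to 5.54 TPM at 48 h, where the macrophage marker CD68 rose (1.85, adjusted p = 0.0368, limma). Of the fibroblast markers only PDGFRB was measured. Their sum was at 0.21 to 3.52 TPM untreated and 0 to 0.54 TPM treated at 24 h, and at 3.00 to 13.41 TPM and 4.96 to 7.66 TPM at 48 h. PDGFRB passed in neither exposure (−0.99 and 0.08) and was lower at 1.25 µM in the direct comparison of the treated groups (−2.86, adjusted p = 0.00817, limma). The part of these markers in the results was not tested. In bulk samples fewer cells of a kind and less RNA per cell cannot be told apart.

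Effects are differences of group means of log2(TPM + 1), so a value of 1 is about a doubling for a well expressed gene and less than the true change for a gene of low level. A gene was said to rise or fall where the limma test adjusted over 14936 genes (Benjamini-Hochberg) gave p under 0.05 against the untreated cells of the same time. After 1.25 µM for 24 h, 738 genes (4.94%) rose and 950 (6.36%) fell. After 0.63 µM for 48 h, 291 genes (1.95%) rose and 849 (5.68%) fell. Counts in the gene lists below are to be set beside these shares. The excess of falls at 48 h depended on the scaling: with median-of-ratios scaling 492 genes rose and 507 fell, and with quantile normalization 497 rose and 550 fell. The median effect over all genes was −0.01 after the shorter exposure and −0.15 after the longer, and either rescaling brought the latter to 0.00. Single libraries mattered as well. Without replicate 3 of the 1.25 µM group the counts at 24 h were 451 up and 509 down, and 480 rose without its replicate 2. Without replicate 3 of the 0.63 µM 48 h group the falls at 48 h numbered 370, and they numbered 429 and 424 without untreated 48 h replicates 1 and 2, while the rises with these 3 libraries left out in turn numbered 180 to 187.

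The effects of the 2 exposures ran largely in the same direction. Both moved 569 genes, 178 up (1.19% of the genes tested) and 391 down (2.62%), and no gene rose in one and fell in the other, though up to 4 did with 1 library left out and 7 with library weights. The shared rises made up 24.1% of the rises at 1.25 µM and 61.2% of those at 48 h, and the shared falls 41.2% and 46.1% of the falls. These counts and shares followed the scaling. With median-of-ratios scaling 249 rises, of 492 at 48 h, and 284 falls were shared. With quantile normalization 260 rises and 284 falls were shared, and without the 20 most abundant genes 201 and 359. Leaving out replicate 3 of the 0.63 µM 48 h group, or untreated 48 h replicate 1 or 2, took the shared falls to between 220 and 223. Since no library was shared, genes called in one exposure could be read in the other. Of the 738 that rose at 1.25 µM, 602 (81.6%) were also higher than untreated at 48 h, with a median effect of 1.17 in the first and 0.45 in the second. Of the 950 that fell at 1.25 µM, 895 (94.2%) were lower at 48 h, with medians of −1.14 and −0.76. In the other direction, 274 of the 291 that rose at 48 h (94.2%) and 772 of the 849 that fell (90.9%) had the same sign at 1.25 µM. The medians over the 291 and the 849 were 1.35 and −1.12 at 48 h and 1.01 and −0.72 at 1.25 µM. A choice by threshold in 1 exposure favours larger effects there, so these medians do not show which exposure had the larger effects. Over all genes tested, most of them called in neither, 9403 of 14936 had the same sign. Pearson's r between the effects was 0.458 and Spearman's rho 0.411 across genes, which are not independent replicates and are measured with error in both, and r was 0.609 over the 3853 genes with a mean of at least 20 TPM.

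**Figure D1:**
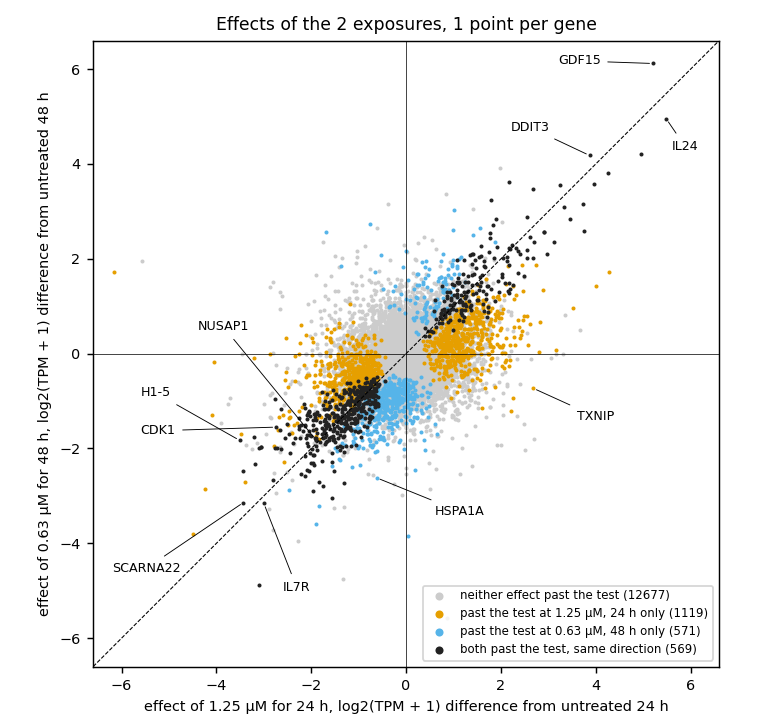
Effect of 0.63 µM for 48 h (vertical axis) against the effect of 1.25 µM for 24 h (horizontal axis) for 14936 genes, both as differences of mean log2(TPM + 1) from untreated cells of the same time. Genes called in both (569) lie along the diagonal in the upper right and lower left quadrants, 1119 were called at 1.25 µM only, 571 at 48 h only, and no gene called in both lies in the other quadrants.

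The genes called in both exposures had similar median effects in each, which a choice by the same threshold in both favours. The 178 shared rises had medians of 1.38 after the shorter exposure and 1.34 after the longer, and 95 of them were larger at 1.25 µM. The 391 shared falls had medians of −1.26 and −1.29, and 193 were larger at 1.25 µM. A test that misses its threshold does not show that effects are alike, so the 95% interval of the difference of the 2 effects was also read. It lay wholly between −1 and 1 on the log2 scale for 77 of the shared rises and 179 of the shared falls, against 2581 (17.3%) of all genes. Passing both tests favours genes with small standard errors, and so with narrow intervals, so these counts do not show likeness by themselves. For most genes that interval was wide: its median half-width was 1.04.

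Genes of the integrated stress response were among the shared rises, DDIT3, TRIB3 and GDF15 among them. Of 38 ATF4 targets measured, 16 rose at 1.25 µM, 20 rose at 48 h, 14 rose in both and none fell, with median effects of 0.76 and 0.93. The rises at 1.25 µM numbered 10, all shared, without untreated 24 h replicate 2, and those at 48 h numbered 12 without untreated 48 h replicate 3. DDIT3 encodes CHOP, the stress factor induced by ATF4 (chromosome 12, 57516588 to 57521737, minus strand, GENCODE 29 on GRCh38). It was at 18.35, 14.01 and 12.45 TPM in untreated 24 h cells and at 214.3, 224.1 and 252.3 TPM after 1.25 µM. In untreated 48 h cells it was at 10.75, 15.82 and 10.02 TPM, and after 0.63 µM at 217.5, 183.5 and 323.3 TPM. Every treated library lay above every untreated one, and the treated groups overlapped. The effects on DDIT3 were 3.87 ± 0.36 (SE; adjusted p = 5.99e-06, limma) and 4.18 ± 0.36 (adjusted p = 4.03e-06), and the difference of −0.31 had a 95% interval of −1.38 to 0.75.

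TRIB3, a pseudokinase that ATF4 and CHOP induce and that dampens ATF4, had nearly equal effects. Its levels were 16.83, 9.91 and 15.38 TPM untreated and 81.15, 79.96 and 57.53 TPM treated at 24 h. At 48 h they were 16.56, 15.62 and 9.89 TPM untreated and 65.58, 71.67 and 67.4 TPM treated. The effects were 2.31 and 2.23 (adjusted p = 9.02e-06 and 1.76e-05, limma), and the interval of their difference, −0.59 to 0.74, lay within 1 log2 unit. GDF15, a secreted stress cytokine, went from 2.9, 2.54 and 5.96 TPM to 140.39, 137.63 and 246.06 TPM at 24 h. At 48 h it went from 1.35, 2.14 and 4.44 TPM to 213.97, 206.01 and 303.2 TPM. Its effects of 5.21 and 6.12 were both above 5, but with untreated levels this low the interval of the difference ran from −2.64 to 0.81. SESN2, which restrains mTORC1 (2.55 and 2.88), NUPR1, a small stress-induced chromatin protein (2.17 and 1.88), STC2, a secreted stanniocalcin (2.18 and 2.22), and CEBPB, a partner of ATF4 (1.96 and 1.31), rose in both. CHAC1, which degrades glutathione, had effects of 2.62 and 2.46, and its call at 48 h was lost in 4 of 25 alternatives, among them without replicate 2 of the 0.63 µM group (adjusted p = 0.0555, limma) and without untreated 48 h replicate 3.

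PPP1R15A encodes GADD34, which recruits a phosphatase to eIF2α and so closes the loop. It stood at 22.97, 17.45 and 18.52 TPM untreated and 218.8, 219.2 and 237.6 TPM after 1.25 µM, and at 15.35, 19.05 and 16.8 TPM untreated and 135.7, 138.6 and 113.4 TPM after 0.63 µM. The treated groups did not overlap. The effects of 3.46 and 2.85 on PPP1R15A (adjusted p = 1.90e-08 and 1.91e-07, limma) differed by 0.61 (95% interval 0.08 to 1.15), and that difference did not pass the test over all genes (adjusted p = 0.393).

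The factors at the head of the response behaved less evenly. ATF4 itself, whose control is mostly translational, was at 217 to 330 TPM in untreated cells and 265 to 290 TPM after 1.25 µM at 24 h (effect 0.17, adjusted p = 0.556, limma). At 48 h it went from 174 to 213 TPM to 295 to 364 TPM (effect 0.70, adjusted p = 0.0149), a call lost without replicate 3 of the 0.63 µM group (adjusted p = 0.0810) and without untreated 48 h replicate 3. ATF3, a stress-induced factor of the same family, was at 10.83, 11.09 and 12.15 TPM untreated and 18.28, 13.81 and 29.54 TPM after 1.25 µM. At 48 h ATF3 was at 5.82, 6.13 and 7.35 TPM untreated and 32.04, 18.11 and 36.3 TPM treated. It rose at 48 h (1.95, adjusted p = 0.00479), its effect at 24 h of 0.74 did not pass (adjusted p = 0.236), and the interval of the difference was −2.35 to −0.08.

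The endoplasmic reticulum arm of the stress response moved in part. Of 24 unfolded protein response genes, 8 rose and 1 fell at 1.25 µM, 5 rose at 48 h, and 4 rose in both (ATF6, HSPA5, HYOU1 and HERPUD1). With 1 library left out in turn the rises at 1.25 µM numbered 3 to 8, falling below 6 without untreated 24 h replicate 1 or 2, 1.25 µM replicate 1 or 2, or untreated 48 h replicate 1. HSPA5 encodes BiP, the main chaperone of that compartment. It was at 171.83, 239.96 and 136.95 TPM untreated and 461.17, 467.02 and 432.16 TPM treated at 24 h. At 48 h HSPA5 was at 131.31, 133.61 and 102.83 TPM untreated and 511.66, 490.75 and 541.03 TPM treated. Its effect was 1.34 after the shorter exposure and 2.07 after the longer (adjusted p = 0.000124 and 3.47e-06, limma), with an interval of the difference of −1.23 to −0.22 and an adjusted p for it of 0.285. HERPUD1, which helps to clear misfolded proteins, went from 12.74, 10.32 and 15.98 TPM to 52.75, 51.39 and 75.25 TPM at 24 h. At 48 h it went from 8.13, 10.09 and 10.41 TPM to 32.36, 39.15 and 49.26 TPM, with effects of 2.12 and 1.95.

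HERPUD1 and ATF3 had in their promoters the letters TGATGNAA, the composite site that C/EBP and ATF factors bind as pairs, and they are shown as one gene that rose in both exposures and one that passed only at 48 h. The windows run from 250 bases before to 50 bases after the annotated start in RefSeq (GRCh38.p14), 5′ to 3′ on the strand of the gene, with the match on either strand in capitals. HERPUD1 lies at chr16:56931892-56932191 on the plus strand, with the match read on the opposite strand and beginning at base −176, and ATF3 at chr1:212565157-212565456 on the plus strand, with the match beginning at base −191.
HERPUD1: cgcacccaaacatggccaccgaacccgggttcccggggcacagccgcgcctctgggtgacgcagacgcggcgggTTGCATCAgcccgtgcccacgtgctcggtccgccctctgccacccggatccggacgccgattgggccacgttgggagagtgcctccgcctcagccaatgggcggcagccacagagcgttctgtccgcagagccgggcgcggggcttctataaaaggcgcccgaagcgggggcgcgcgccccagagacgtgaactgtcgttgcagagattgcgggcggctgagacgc
ATF3: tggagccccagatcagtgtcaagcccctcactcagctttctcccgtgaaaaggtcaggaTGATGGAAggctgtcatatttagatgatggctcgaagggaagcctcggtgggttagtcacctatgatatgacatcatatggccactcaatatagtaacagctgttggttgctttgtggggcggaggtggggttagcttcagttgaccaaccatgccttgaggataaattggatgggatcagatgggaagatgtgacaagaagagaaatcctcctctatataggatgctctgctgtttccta

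Such letters are a description and not a site in use. They were absent from the promoters of DDIT3, TRIB3, GDF15, PPP1R15A, SESN2, STC2, CEBPB and ATF4. They were present in those of CHAC1 and S100P, which rose in both exposures, and of ASNS and HRK. IL7R, which fell in both, and NARS1, which fell after the shorter exposure, had them too. Among the shared falls the share with TGATGNAA was 1.92%. TGATGNAA was found in 5 promoters of the shared rises (4.0%), in 1.73% of the promoters of all genes tested and in 3.67% of the 27305 promoters of the table.

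The ferritin genes, the cytokine gene IL24 and some non-coding host genes also rose in both exposures. FTH1, the ferritin heavy chain that oxidises and stores iron, was at 2949.65, 2263.19 and 2716.84 TPM untreated and 10499.11, 11113.89 and 8364.09 TPM treated at 24 h. At 48 h it was at 2792.16, 3031.18 and 2431.23 TPM untreated and 13239.24, 13089.16 and 12599.36 TPM treated. The ratio of mean TPM for FTH1 was 3.78 and 4.72, the effects were 1.92 and 2.24 (adjusted p = 4.21e-07 and 1.54e-07, limma), and the interval of the difference was −0.72 to 0.07. The light chain FTL (1.01 and 1.23) and the autophagy receptor SQSTM1 (1.24 and 1.52) rose in both as well. These 3 and OSGIN1 were the 4 of 25 NRF2 targets that rose in both; NRF2 is the oxidant-responsive factor that binds their promoters. The antioxidant PRDX1 of the same list fell in both (−0.65 and −0.98), a call lost at 1.25 µM in 8 of 25 alternatives, among them without replicate 3 of that group (adjusted p = 0.149) and without each untreated 24 h library, and the classical target NQO1 had effects of 0.12 and −0.11.

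IL24, a cytokine of the interleukin-10 family that melanocytes make and melanomas tend to lose, was at 8.73, 3.08 and 6.94 TPM untreated and 256.13, 279.24 and 399.03 TPM after 1.25 µM. The 48 h libraries were at 3.59, 4.28 and 5.65 TPM untreated and 140.2, 144.94 and 232.31 TPM treated. The treated groups did not overlap, the effects on IL24 were 5.49 and 4.95 (adjusted p = 4.71e-07 and 2.19e-06, limma), and the interval of the difference, −0.62 to 1.70, included 0. LCN2, a secreted iron-binding lipocalin, was listed at 0 in all 3 untreated 24 h libraries and was at 4.36, 18.28 and 21.48 TPM after 1.25 µM. At 48 h LCN2 was at 0.79, 0 and 0 TPM untreated and 14.35, 11.11 and 5.9 TPM treated. GAS5, a non-coding host of small nucleolar RNAs whose spliced transcript is degraded when translated, was at 252.2, 277.6 and 279.3 TPM untreated and 1005, 984 and 1354 TPM treated at 24 h. At 48 h GAS5 was at 323.7, 305 and 324 TPM untreated and 963.2, 942.5 and 1201 TPM treated, and its effects were 2.03 and 1.69. Of 16 such host genes 7 rose and 1 fell at 1.25 µM, 7 rose at 48 h and 5 rose in both, among them SNHG32 (2.54 and 2.02) and ZFAS1 (2.03 and 1.61). The rises of host genes at 48 h numbered 11 with quantile normalization, and 11 without untreated 24 h replicate 2, when 8 were shared. The autophagy gene WIPI1 (2.90 and 2.56) and the MYC antagonist MXD1 (3.13 and 2.35) also rose in both.

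Genes of cell division were among the shared falls. Of 50 genes of the G2 phase and mitosis, 45 fell at 1.25 µM, 40 fell at 48 h, 37 fell in both and none rose, with median effects of −1.61 and −1.33. Of 56 E2F targets and replication genes, 31 and 36 fell, 27 in both, with medians of −1.15 and −1.27. The falls at 48 h numbered 26 and 17 in these lists without replicate 3 of the 0.63 µM group. With each library left out in turn they ranged from 24 to 46 and from 17 to 38, and were also over 1.5 times fewer without untreated 48 h replicates 1 and 2 (both lists) and 3 (the mitotic list). The shared falls ranged from 22 to 39 and from 16 to 26. Without replicate 3 of the 1.25 µM group 18 E2F targets fell at 24 h. The median effects at 48 h were below −1 without replicate 3 of the 0.63 µM group as well (−1.22 and −1.03). NUSAP1, which bundles spindle microtubules (chromosome 15, 41332694 to 41381050, plus strand), was at 108.6, 166.3 and 111.2 TPM untreated and 42.21, 27.47 and 30.88 TPM treated at 24 h. At 48 h it was at 135.5, 115.7 and 143.2 TPM untreated and 31.21, 42.67 and 36.33 TPM treated. Untreated and treated libraries did not overlap at either time, and the treated groups did. Its effects of −1.90 and −1.82 (adjusted p = 1.73e-05 and 3.21e-05, limma) had a difference with an interval of −0.67 to 0.49.

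RRM2, the regulated subunit of ribonucleotide reductase, which supplies deoxynucleotides, was at 75.84, 82.11 and 70.66 TPM untreated and 24.13, 25.45 and 8.63 TPM after 1.25 µM. The 48 h libraries were at 62.52, 67.88 and 55.05 TPM untreated and 12.11, 13.62 and 6.5 TPM treated, with effects of −2.05 and −2.47. Replicate 3 was the lowest RRM2 library in both treated groups. The thymidylate synthase TYMS (−1.96 and −2.30), the proliferation marker MKI67 (−1.66 and −1.84), the activator of late cell cycle genes MYBL2 (−2.09 and −2.46), the kinetochore subunit SPC25 (−1.97 and −2.13) and the replication clamp PCNA (−1.56 and −2.29) fell in both. The CDK inhibitor gene CDKN2C fell in both (−1.97 and −2.90), whereas CDKN1A, which encodes p21, rose at 1.25 µM (1.95) and was at 1.15 without passing at 48 h (adjusted p = 0.116, limma). CCND1, the cyclin of early G1, passed in neither (−0.35 and 0.14).

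The letters TTTGAA of the cell cycle homology region stood in 69 of 312 promoters of the shared falls (22.1%), in 8.0% of the promoters of the shared rises, in 9.61% of those of the 10090 genes tested that had a promoter in the table and in 15.4% of all promoters of the table. The letters CCAAT, which NF-Y binds, stood in 51.6% of the promoters of the shared falls, in 48.0% of those of the shared rises and in 37.3% of those of the genes tested. Either strand was counted, and short motifs such as these occur often by their length alone. The promoters of NUSAP1 (chr15:41332631-41332930, plus strand, match beginning at base 13 after the start), SPC25 (chr2:168890381-168890680, minus strand, matches beginning at −247 and −3) and CDK1 (chr10:60778081-60778380, plus strand, match beginning at −161) are printed as above, with TTTGAA in capitals, for a pair of genes with nearly equal falls and one with a larger fall at 1.25 µM.
NUSAP1: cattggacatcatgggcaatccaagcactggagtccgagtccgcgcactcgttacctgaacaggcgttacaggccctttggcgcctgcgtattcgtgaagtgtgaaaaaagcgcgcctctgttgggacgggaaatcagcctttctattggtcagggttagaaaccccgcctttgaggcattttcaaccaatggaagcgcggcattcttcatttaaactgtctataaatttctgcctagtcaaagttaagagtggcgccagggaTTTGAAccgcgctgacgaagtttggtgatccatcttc
SPC25: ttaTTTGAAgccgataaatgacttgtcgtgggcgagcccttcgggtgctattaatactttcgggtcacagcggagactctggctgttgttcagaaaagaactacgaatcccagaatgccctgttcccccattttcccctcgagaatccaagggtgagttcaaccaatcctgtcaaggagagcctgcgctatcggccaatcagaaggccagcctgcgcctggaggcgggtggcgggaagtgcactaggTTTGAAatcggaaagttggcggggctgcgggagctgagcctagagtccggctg
CDK1: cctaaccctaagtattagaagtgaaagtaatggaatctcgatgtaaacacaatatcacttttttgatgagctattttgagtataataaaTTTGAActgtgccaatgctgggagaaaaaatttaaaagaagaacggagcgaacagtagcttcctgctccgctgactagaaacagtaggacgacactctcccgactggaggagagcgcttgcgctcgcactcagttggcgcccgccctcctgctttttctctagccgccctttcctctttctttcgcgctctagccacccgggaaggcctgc

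Some heat shock chaperones, which fold new proteins, fell in both exposures. Of 21, 10 fell at 1.25 µM, 12 at 48 h and 7 in both, and none rose. The shared falls numbered 4 without untreated 48 h replicate 1 or 2. HSP90AA1, the inducible HSP90, was at 2334, 5469 and 2030 TPM untreated and 839.1, 812.5 and 681.5 TPM treated at 24 h. At 48 h it was at 2131, 2088 and 1636 TPM untreated and 635.1, 574.1 and 498.1 TPM treated. Untreated 24 h replicate 2 stood far above its group for this gene, and the effects were −1.93 (−1.49 without that library) and −1.77, with the call kept. HSPA8, the constitutive HSP70, fell in both as well, and HSPE1, the mitochondrial co-chaperonin, fell by 1.37 and 1.63 on the log2 scale.

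CAV1, the coat protein of caveolae (chromosome 7, 116524785 to 116561184, plus strand), fell by nearly equal amounts. It was at 241.5, 313.4 and 282.4 TPM untreated and 73.63, 59.92 and 62.91 TPM after 1.25 µM. At 48 h CAV1 was at 250.5, 230.7 and 249.3 TPM untreated and 60.93, 61.29 and 65 TPM treated. The effects were −2.07 and −1.95 (SE 0.13, adjusted p = 1.66e-07 and 4.02e-07, limma), and the interval of the difference was −0.52 to 0.27. THBS1, a secreted matrix protein (−2.76 and −1.98), and the interleukin-7 receptor IL7R (−3.00 and −3.16) fell in both.

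**Figure D2:**
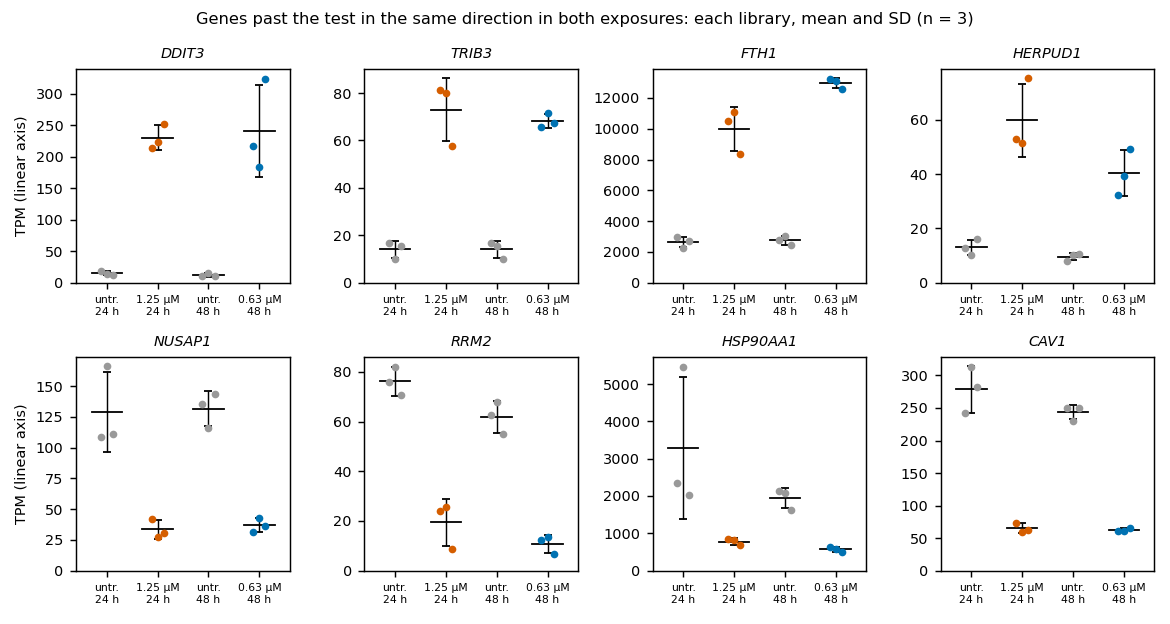
TPM on a linear axis in each of the 12 libraries for 8 genes changed alike (DDIT3, TRIB3, FTH1, HERPUD1, NUSAP1, RRM2, HSP90AA1 and CAV1), by group, with points for libraries and bars for the group mean and SD (n = 3). In each panel all 3 treated libraries lie on the same side of their untreated group at both times.

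The difference of the effects was then tested in the same fit. Over all genes 1 passed (0.0067%), the small nucleolar RNA gene ENSG00000252236 (chromosome 1, 156192063 to 156192203, minus strand), which was at 4.22, 7.13 and 8.05 TPM in untreated 24 h cells and at 0 in the other 9 libraries, those of untreated 48 h cells included. Its difference of −2.86 (interval −3.63 to −2.09, adjusted p = 0.00931, limma) rests on the untreated 24 h level alone. In the unadjusted test 1629 genes (10.9%) had p under 0.05, 1188 with the effect at 1.25 µM above that at 48 h and 441 below. Without untreated 24 h replicate 2 the test called 3 genes, without 0.63 µM 48 h replicate 1 it called 2, and without untreated 24 h replicate 3 it called 0. The split of the unadjusted differences followed the scaling: with median-of-ratios values it was 759 and 830, and with quantile normalization 814 and 793. Both centre the libraries by their construction. Without the 20 most abundant genes the split was 974 and 565. The standard error of a difference had a median of 0.49 against 0.346 for a single effect. The genes below were chosen for their differences or for the gap between their treated groups. None of these differences passed the test over all genes, so they are given as values with intervals that take no account of that choice.

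**Figure D3:**
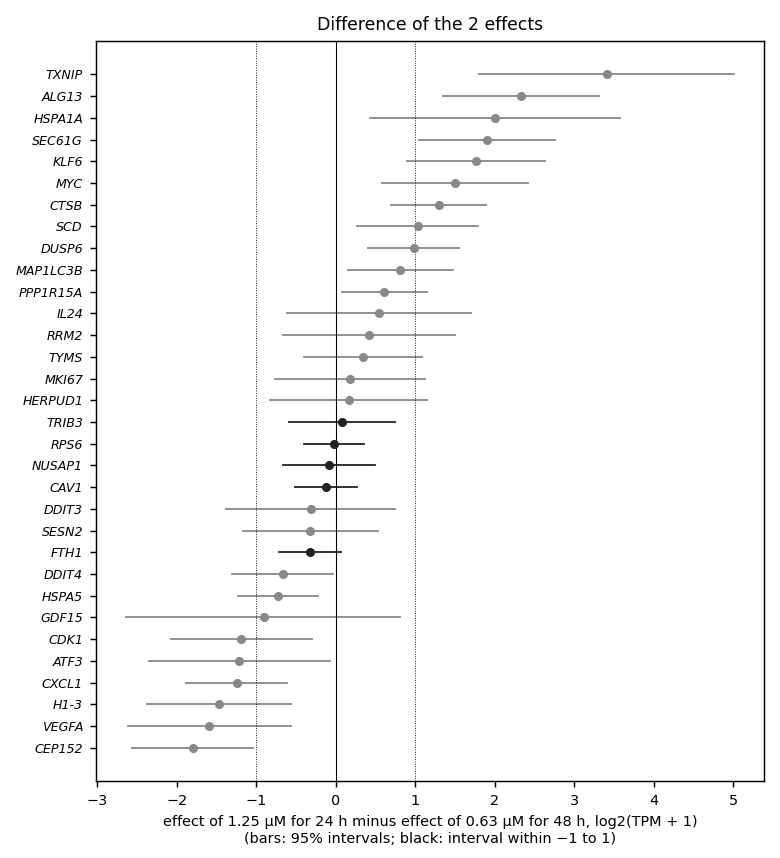
Difference of the effects, 1.25 µM at 24 h minus 0.63 µM at 48 h, on the log2(TPM + 1) scale, as points with 95% intervals for 32 named genes. The intervals of TXNIP, ALG13, MYC and CTSB lie above 0, those of CDK1, CEP152, H1-3 and VEGFA below, and those of DDIT3, TRIB3, NUSAP1 and CAV1 include 0.

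Some genes had their larger effect after the shorter, stronger exposure. TXNIP encodes an arrestin-like protein that binds thioredoxin and limits glucose uptake (chromosome 1, 145992435 to 145996600, minus strand). It was at 2.37, 2.75 and 8.47 TPM untreated and 39.49, 41.28 and 17.24 TPM after 1.25 µM at 24 h. At 48 h TXNIP was at 3.37, 6.96 and 23.64 TPM untreated and 3.92, 4.21 and 6.29 TPM treated. TXNIP rose at 1.25 µM (2.68, adjusted p = 0.00427, limma), its effect at 48 h was −0.73 (adjusted p = 0.486), and the difference of 3.41 had an interval of 1.80 to 5.01 and an adjusted p of 0.152. Untreated 48 h replicate 3, at 23.64 TPM, lay inside the range of the cells treated with 1.25 µM. SEC61G, a subunit of the channel that passes proteins into the endoplasmic reticulum, was at 159 to 273 TPM untreated and 610 to 825 TPM after 1.25 µM. It was at 130 to 216 TPM untreated and 129 to 172 TPM treated at 48 h (1.79 and −0.11, interval of the difference 1.04 to 2.76). ALG13, which acts early in N-glycan assembly, rose from 8.68, 14.08 and 10.56 TPM to 42.6, 71.45 and 50.29 TPM at 1.25 µM and was at 7.46, 7.55 and 8.89 TPM untreated and 5.38, 12.07 and 5.52 TPM treated at 48 h.

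Immediate early and ERK-responsive genes leaned the same way. The first are transcribed within minutes of a growth factor or stress signal, and the second report the output of the BRAF-MEK-ERK cascade. Of 20 AP-1 and immediate early genes, 12 rose at 1.25 µM and 3 at 48 h, 2 in both, with medians of 1.06 and 0.28. With either rescaling 6 rose at 48 h, and the rises at 1.25 µM ranged from 7 (without replicate 1 of that group) to 11 with 1 library left out. Of these 20 genes, 7 had an unadjusted p under 0.05 for a larger effect at 1.25 µM and 1, ATF3, for a larger effect at 48 h. Over all 14936 genes 1188 and 441 did, a split that followed the scaling. The median difference of the list was 0.78, and 0.62 with either rescaling. MYC, a driver of growth and an ERK target, was at 1.61, 0.84 and 2.83 TPM untreated and 8.47, 9.88 and 10.23 TPM after 1.25 µM. At 48 h MYC was at 1.11, 1.33 and 1.97 TPM untreated and 1.64, 2.43 and 3.46 TPM treated. All 3 libraries at 1.25 µM lay above all others, the effects were 1.99 (adjusted p = 0.000687, limma) and 0.49 (adjusted p = 0.399), and the interval of the difference was 0.58 to 2.42. KLF6, a zinc finger factor, was at 6.62, 10.07 and 12.61 TPM untreated and 18.54, 32.05 and 34.21 TPM treated at 24 h, against 8.61, 12.01 and 9.01 TPM and 6.58, 10.48 and 6.29 TPM at 48 h (1.44 and −0.33, interval 0.89 to 2.63).

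Of 24 genes of ERK output, 7 rose at 1.25 µM, and 3 rose and 1 fell at 48 h, with medians of 0.38 and 0.07. Of the 24, 7 had an unadjusted p under 0.05 for a larger effect at 1.25 µM, against 1188 of all 14936 genes. With either rescaling 5 rose and 0 fell at 48 h, with a median of 0.27. The fall at 48 h was lost without any 1 of the 0.63 µM or untreated 48 h libraries, and 1 rose there without untreated 48 h replicate 1 or 2. The list was not of one piece: DUSP5, an ERK phosphatase, rose in both by nearly the same amount (2.12 and 2.03), while DUSP6, the phosphatase most used as a reading of ERK activity, passed in neither (0.58 and −0.39, interval of the difference 0.40 to 1.55). MAFG, a small MAF partner of NRF2, rose at 1.25 µM and did not pass at 48 h (1.20 and 0.30, interval 0.32 to 1.49).

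Lysosomal and respiratory genes were read in the same way. Of 41 lysosome and autophagy genes, 9 rose and 1 fell at 1.25 µM and 3 rose at 48 h, all 3 shared. The medians were 0.41 and −0.08, and the second became 0.06 with either rescaling, under which 7 rose at 48 h. CTSB, a lysosomal protease, was at 25.8, 22.34 and 30.49 TPM untreated and 68.84, 89.55 and 71.93 TPM after 1.25 µM. At 48 h CTSB was at 38.17, 29.28 and 44.56 TPM untreated and 48.1, 40.6 and 40.62 TPM treated (1.52 and 0.22, interval 0.70 to 1.89). MAP1LC3B, the autophagosome marker LC3B, rose in both (2.15 and 1.33, interval 0.15 to 1.47). Of 40 nuclear genes of the respiratory chain and ATP synthase, 5 rose and 3 fell at 1.25 µM and 5 fell at 48 h, with medians of 0.14 and −0.17, the second 0.03 with either rescaling. Of the 40, 16 had an unadjusted p under 0.05 for a larger effect at 1.25 µM, against 1188 of all 14936 genes. Over all genes that number was 759 with median-of-ratios and 814 with quantile values, under which the list's median difference went from 0.52 to 0.34 and 0.43. With 1 library left out the rises of these respiratory genes at 1.25 µM ranged from 2 (1.25 µM replicate 2 or untreated 24 h replicate 2) to 9 (untreated 24 h replicate 3), and the falls at 48 h from 3 (0.63 µM replicate 1, untreated 48 h replicate 1 or 3) to 8 (untreated 24 h replicate 2). The 53 cytosolic ribosomal protein genes had medians of 0.31 and 0.28, and 48 of the 53 intervals lay within 1 log2 unit. Of them 15 rose at 1.25 µM and 4 at 48 h. These counts followed the scaling: they were 13 and 16 with median-of-ratios scaling, and 4 and 1 with quantile normalization, under which the medians were 0.13 and 0.10. They followed single libraries too, with 20 and 17 without untreated 24 h replicate 2. With each library left out the rises ranged from 4 (1.25 µM replicate 3) to 20 at 1.25 µM and from 1 (0.63 µM replicate 3, untreated 48 h replicate 1 or 2) to 17 at 48 h.

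Among apoptosis regulators, 6 of 26 rose at 1.25 µM, and 1 rose and 1 fell at 48 h; with either rescaling 3 rose at 48 h, all shared. The shared rise was TNFRSF10B, the death receptor DR5, from 8.12, 5.04 and 6.02 TPM to 18.32, 15.3 and 13.42 TPM at 24 h and from 6.52, 8.01 and 6.91 TPM to 16.7, 20.13 and 12.68 TPM at 48 h. BCL2L2, an inhibitor of cell death, was at 0.24, 1.48 and 1.67 TPM untreated and 5.34, 4.9 and 5.1 TPM after 1.25 µM, and at or below 1.7 TPM in every library at 48 h (1.60 and −0.30, interval 1.02 to 2.78). BAX, a pore-forming effector of cell death, was at 3.22, 10.87 and 2.19 TPM untreated and 7.15, 7.77 and 4.1 TPM treated at 24 h. At 48 h BAX was at 4.54, 6.38 and 4.08 TPM untreated and 0.76, 0 and 0.74 TPM treated. The fall at 48 h passed (−2.03, adjusted p = 0.00705, limma), the effect of 0.40 at 24 h did not, and the interval of the difference was 1.17 to 3.68.

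Inducible HSP70 and some sterol genes fell at 48 h, while their effects at 24 h did not pass. HSPA1A was at 60.55, 48.39 and 128.06 TPM untreated and 33.13, 37.22 and 82.36 TPM after 1.25 µM, groups that overlapped. The 48 h libraries were at 41.06, 53.11 and 22.32 TPM untreated and 7.21, 6.13 and 2.92 TPM treated, groups that did not. The effects were −0.62 (adjusted p = 0.508, limma) and −2.62 (adjusted p = 0.00576), and the interval of the difference was 0.43 to 3.57. The neighbouring copy HSPA1B gave −0.16 and −1.86, a call at 48 h lost without replicate 3 of the 0.63 µM group (adjusted p = 0.0629) and without untreated 48 h replicate 1. The copies are nearly identical, so the split of reads between them is uncertain. BAG3, a co-chaperone induced by the same heat shock factor, also fell at 48 h and did not pass at 24 h (−0.33 and −1.35, interval 0.31 to 1.75). The promoter of HSPA1A (chr6:31815293-31815592, plus strand) is shown because it holds GAANNTTC, 2 units of the heat shock element, beginning at base −106 and in capitals. These letters were in 6.87% of all promoters of the table and in 4.6% of those of the genes tested. They were in 4.99% of the promoters of genes that fell at 48 h and were not called at 1.25 µM. Among the shared falls the share was 7.37%, and among the shared rises 10.4%.
HSPA1A: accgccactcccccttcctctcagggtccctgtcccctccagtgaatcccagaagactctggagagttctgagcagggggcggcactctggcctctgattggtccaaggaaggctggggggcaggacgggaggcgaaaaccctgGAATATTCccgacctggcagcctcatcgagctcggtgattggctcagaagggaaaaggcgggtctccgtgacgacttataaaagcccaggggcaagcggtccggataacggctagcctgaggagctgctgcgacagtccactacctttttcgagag

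Of 24 cholesterol synthesis and SREBP2 genes, 1 fell at 1.25 µM (EBP, also at 48 h, its call at 1.25 µM lost without replicate 3 of that group) and 4 fell at 48 h, and none rose. Over all genes tested 6.36% fell at 1.25 µM and 5.68% at 48 h. The medians were 0.03 and −0.66, and the first was −0.28 without untreated 24 h replicate 2. In fatty acid synthesis the desaturase SCD gave −0.26 and −1.29 (interval 0.27 to 1.79). SCD stood at 14.16 to 36.58 TPM in untreated 24 h cells and at 36.69 to 44.51 TPM in untreated 48 h cells, while the treated groups were at 16.42 to 17.74 TPM and 13.76 to 17.68 TPM. For SCD the larger fall at 48 h thus went with a higher untreated level, and the treated levels overlapped. Of 12 fatty acid synthesis genes 1 fell at 1.25 µM and 5 at 48 h, or 2 without replicate 3 of the 0.63 µM group, and 3 with median-of-ratios scaling, without its replicate 1 or without any 1 untreated 48 h library.

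Some cell cycle genes had their larger effect after 1.25 µM. CDK1, the mitotic kinase, was at 167.16, 169.64 and 189.73 TPM untreated and 34.22, 31.52 and 15.13 TPM treated at 24 h, and at 224.18, 178.6 and 192.72 TPM untreated and 61.8, 74.79 and 65.11 TPM treated at 48 h. The treated groups did not overlap, the effects were −2.74 and −1.55 (adjusted p = 3.06e-05 and 0.00443, limma), and the interval of the difference was −2.08 to −0.30. Its partner CCNB1 (−2.13 and −1.50, interval −1.17 to −0.08) and ANLN, a scaffold of the cleavage furrow (−2.51 and −1.49, interval −1.96 to −0.09), leaned the same way. CEP152, needed for centriole duplication, was at 61.65, 49.15 and 62.56 TPM untreated and 5.9, 7.28 and 10.2 TPM after 1.25 µM. At 48 h CEP152 was at 61.83, 71.42 and 52.91 TPM untreated and 25.54, 33.86 and 34.93 TPM treated. Its effects were −2.76 and −0.96 (interval −2.56 to −1.04), and the call at 48 h was lost in 7 of 25 alternatives, both rescalings among them, with an adjusted p of 0.126 without untreated 48 h replicate 2.

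The division genes did not all lean that way. TK1, a salvage kinase for thymidine, had its larger effect at 48 h (−1.32 and −2.73, interval 0.44 to 2.38), its call at 1.25 µM being lost without replicate 2 (adjusted p = 0.0553) or 3 of that group and without untreated 24 h replicate 3. FEN1, the flap nuclease of replication, gave −0.71 without passing and −1.96 (interval 0.38 to 2.12). UBE2C, the ubiquitin carrier of mitotic exit, was at 280.2, 110.1 and 337.3 TPM untreated and 294.6, 238.1 and 236.1 TPM after 1.25 µM. At 48 h UBE2C was at 248.4, 206.6 and 299 TPM untreated and 98.69, 95.71 and 99.54 TPM treated (0.22 and −1.33, interval 0.64 to 2.47), the call at 48 h being lost without untreated 48 h replicate 3 (adjusted p = 0.0556, limma).

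Of 20 replication-dependent histone genes, 11 fell and 1 rose at 1.25 µM and 6 fell at 48 h, all shared, with medians of −1.39 and −0.78. Of the 20, 7 had an unadjusted p under 0.05 for a larger fall at 1.25 µM. Over all 14936 genes 441 had a difference in that direction. Without replicate 3 of the 0.63 µM group 3 fell at 48 h, and 2 did without untreated 48 h replicate 1 or 2. These mRNAs mostly end in a stem-loop without a poly(A) tail, so a kit that primes on poly(A) reads only part of them. H4C3, which encodes histone H4, was at 2698.19, 1937.92 and 2529.35 TPM untreated and 473.9, 400.82 and 281.06 TPM after 1.25 µM. At 48 h H4C3 was at 2292.78, 2419.71 and 1398.46 TPM untreated and 658.82, 631.86 and 650.29 TPM treated (−2.65 and −1.61, interval −1.75 to −0.32). H1-3, a linker histone, was at 109.87, 180.08 and 116.99 TPM untreated and 31.85, 26.33 and 10.18 TPM treated at 24 h, and at 140.02, 164.11 and 113.94 TPM untreated and 62.66, 56.14 and 65.45 TPM treated at 48 h. Its effects were −2.63 and −1.16 (interval −2.38 to −0.56), and its call at 48 h was lost in 9 of 25 alternatives, both rescalings among them, with an adjusted p of 0.118 without untreated 48 h replicate 2 (limma).

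Other genes had their larger rise after 48 h. VEGFA, the angiogenic growth factor and a target of ATF4 and of hypoxia, was at 13.5, 10.83 and 22.3 TPM untreated and 25.56, 22.89 and 11.66 TPM after 1.25 µM. At 48 h VEGFA was at 10.8, 9.37 and 5.57 TPM untreated and 46.85, 40.58 and 21.41 TPM treated. The groups overlapped at 24 h and not at 48 h, the effects were 0.34 and 1.93 (adjusted p = 0.590 and 0.00229, limma), and the interval of the difference was −2.62 to −0.57. Other genes of the hypoxia list did not share that lean: NDRG1 rose by nearly the same amount in both (2.24 and 2.29), as did the glucose transporter SLC2A3 (1.86 and 2.02). DDIT4, which restrains mTORC1, rose in both (0.75 and 1.42, interval −1.31 to −0.03), its call at 1.25 µM being lost in 6 of 25 alternatives, among them without replicate 2 (adjusted p = 0.134) or 3 of that group and without untreated 24 h replicate 1 or 2. Of 20 cytosolic tRNA synthetases, 5 rose and 2 fell at 1.25 µM and 4 rose at 48 h. The rises at 48 h numbered 8 with either rescaling and 7 without untreated 24 h replicate 2. They numbered 2 without 0.63 µM replicate 1 or 3 or untreated 48 h replicate 2 or 3, and those at 1.25 µM ranged from 1 to 5, lowest without 1.25 µM replicate 1. NARS1, which charges asparagine tRNA, fell at 1.25 µM, from 544.5, 963.3 and 560.1 TPM to 391.8, 316.5 and 317.5 TPM, and was at 591, 565.3 and 427.4 TPM untreated and 594.3, 602 and 604.9 TPM treated at 48 h (−0.96 and 0.20, interval −1.76 to −0.57).

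**Figure D4:**
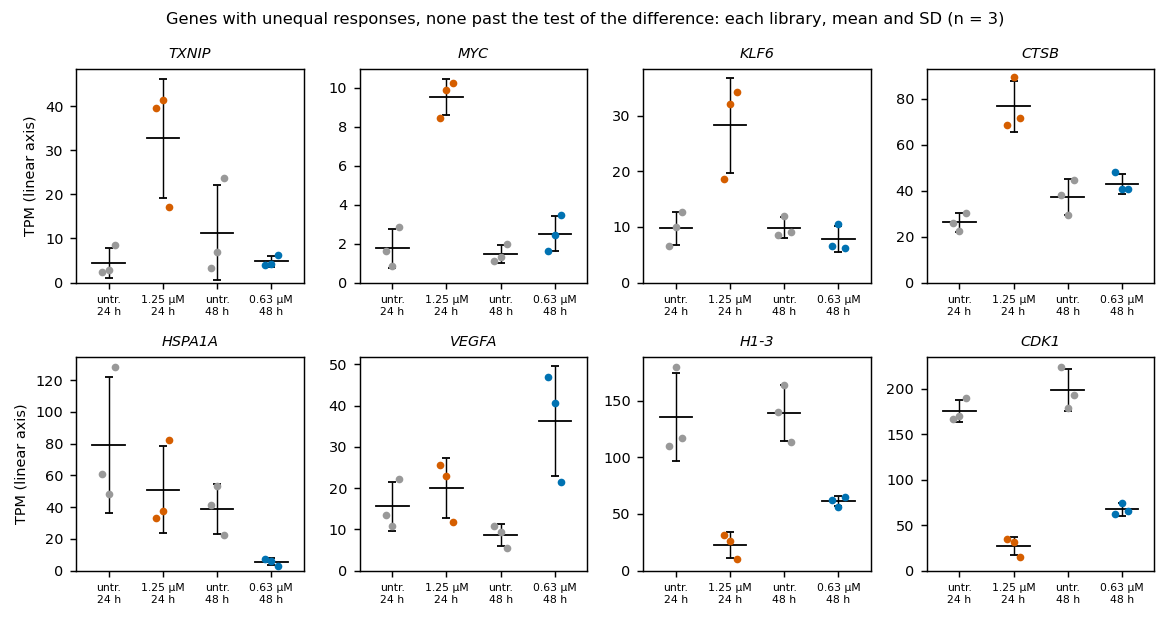
TPM on a linear axis in each of the 12 libraries for 8 genes whose effects leaned apart (TXNIP, MYC, KLF6, CTSB, HSPA1A, VEGFA, H1-3 and CDK1), by group, with points for libraries and bars for the group mean and SD (n = 3). TXNIP, MYC, KLF6 and CTSB passed the test at 1.25 µM and not at 48 h, HSPA1A and VEGFA at 48 h and not at 1.25 µM, and H1-3 and CDK1 at both.

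The kinase that IMD-0354 is described as inhibiting works through NF-κB, so genes of that pathway were read in the same way. The subunits IKBKB (−0.82 and 0.19), CHUK (−0.01 and −0.09), IKBKG (0.24 and −0.64), RELA (0.28 and −0.12) and NFKB1 (−0.20 and −0.32) passed in neither exposure. NFKBIA, the inhibitor IκBα and itself a target of NF-κB, was at 23.77, 30.91 and 18.3 TPM untreated and 11.39, 11.24 and 12.17 TPM after 1.25 µM. At 48 h NFKBIA was at 28.31, 15.92 and 19.08 TPM untreated and 12.5, 13.49 and 27.32 TPM treated, groups that overlapped. It fell at 1.25 µM (−0.98, adjusted p = 0.0299, limma), a call lost in 8 of 25 alternatives, among them quantile normalization and without untreated 24 h replicate 2 (adjusted p = 0.107) or any 1 of the 1.25 µM libraries, and its effect at 48 h was −0.28. Of the 29 genes of the list, 3 rose and 3 fell at 1.25 µM, and 4 rose and 0 fell at 48 h. Over all genes tested 4.94% rose and 6.36% fell at 1.25 µM, and 1.95% rose and 5.68% fell at 48 h. The 1 shared rise was the chemokine CXCL3 (1.61 and 1.65). Its call at 1.25 µM was lost without replicate 1 of that group (adjusted p = 0.0610, limma). Its call at 48 h was lost without 0.63 µM replicate 3 or untreated 48 h replicate 1 or 3 (adjusted p = 0.0685 for the last, limma). With 1 library left out, the falls in the list at 1.25 µM ranged from 0 to 3, with 1 or 0 without any 1.25 µM library or untreated 24 h replicate 2. The rises at 48 h numbered 2 without 0.63 µM replicate 3 or untreated 48 h replicate 1 or 3, and the shared rises ranged from 0 to 2. Its relative CXCL1 fell at 1.25 µM, from 34.12, 36.28 and 30.96 TPM to 21.43, 18.62 and 13.25 TPM, and was at 24.2, 22.34 and 19.78 TPM untreated and 24.85, 27.97 and 31.71 TPM treated at 48 h (−0.91 and 0.33, interval −1.89 to −0.61). The fall of CXCL1 was lost without replicate 3 of the 1.25 µM group (adjusted p = 0.0619).

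**Figure D5:**
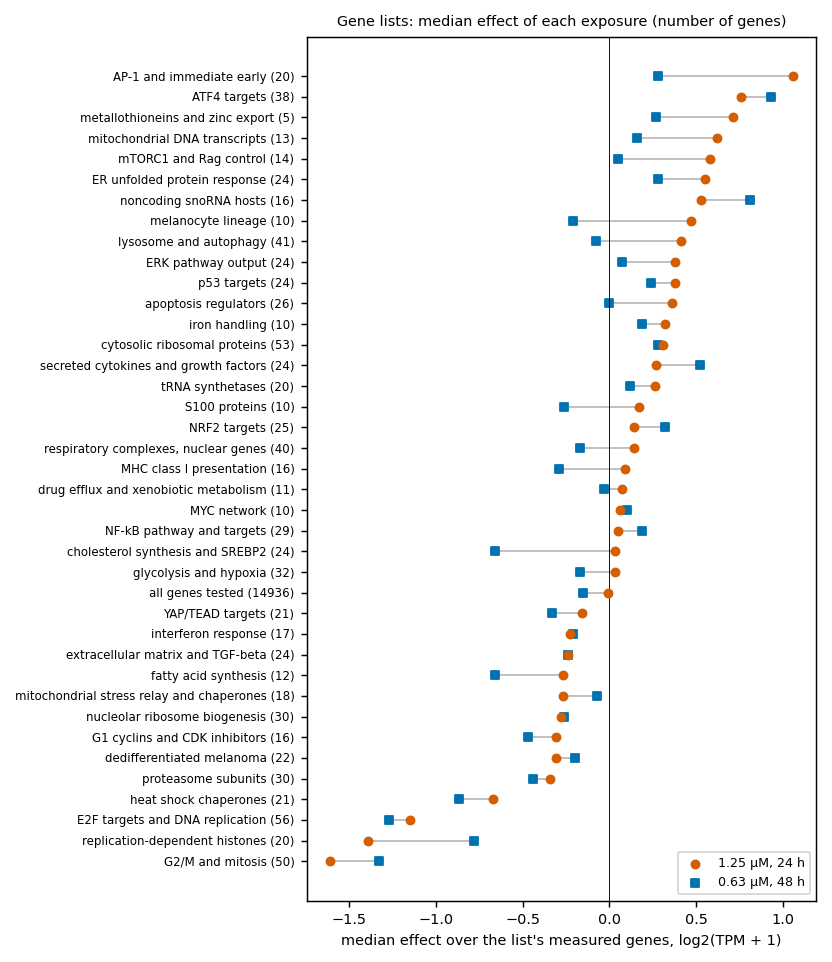
Median effect of each gene list with at least 5 genes measured, after 1.25 µM for 24 h and after 0.63 µM for 48 h, on the log2(TPM + 1) scale. ATF4 targets lie above 0 and division genes and histones below 0 in both, while AP-1 genes (1.06 and 0.28) and cholesterol synthesis (0.03 and −0.66) lie apart.

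The treated groups were also compared directly, with no untreated cells in between. They differed at 814 genes (5.45%), 703 higher at 1.25 µM and 111 lower. This split followed the scaling: it was 299 and 288 under median-of-ratios values and 357 and 283 under quantile normalization. Without the 20 most abundant genes it was 326 and 219. Leaving out a treated library lowered the count, to 284 without replicate 3 and 482 without replicate 1 of the 0.63 µM 48 h group and to 409 and 371 without replicates 1 and 2 of the 1.25 µM group, and without untreated 24 h replicate 2, which enters only through the estimate of spread, 1323 passed. Of the 814 genes, 250 were among those called at 1.25 µM and 221 among those called at 48 h. Untreated 24 h and untreated 48 h cells differed in the same direction, with no threshold applied, for 624 of them. No like count over all genes is given for the 624. The difference of the effects had the same sign and an unadjusted p under 0.05 (limma) for 546. Of all genes, 1629 (10.9%) had such a p in either direction. The difference of the effects contains the treated difference, so a choice by the treated comparison favours this count, which is no separate support. Untreated cells at 48 h differed from untreated cells at 24 h at 2 genes (0.0134%), both lower at 48 h (1 when untreated 24 h replicate 2 or any 1 of the untreated 48 h libraries was left out), with 1181 genes at an unadjusted p under 0.05.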

How the data were processed

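Gene expression was measured by QuantSeq 3' mRNA sequencing (FWD kit), per the labels' protocols. The authors deposited 1 table of TPM for 60504 Ensembl identifiers, without counts, so depth and its precision are unknown and no count test was made. TPM divides by transcript length while a 3' kit reads transcript ends, so levels of very short RNAs are raised. The tools listed, per the submitters' processing notes, are DESeq2 (no version), RSEM 1.3.1, STAR 2.7 and cutadapt 1.18, without roles; the build is not given in the sources used here. All 18 columns matched a sample (0 did not).

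Groups came from the labels. The 14936 genes that reached 1 TPM in 3 or more of the 18 libraries were tested on log2(TPM + 1), computed here, with limma 3.58.1 in R 4.3.3: 1 mean per group over all 6 groups, empirical Bayes with a mean-variance trend (12 residual and a median of 4.16 prior degrees of freedom), two-sided, Benjamini-Hochberg adjusted, threshold 0.05. Contrasts were the 2 effects, their difference, the treated groups, and the untreated groups. The steps were tested on simulated data. The name table matched 56558 identifiers and GENCODE 29 matched 56996; promoters came from RefSeq (GRCh38.p14), for 123 of the 164 named genes.

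Libraries, gene lists and tests were chosen with earlier results of these data known. Named genes had a symbol and a mean of at least 5 TPM in a group: the 12 shared rises and 12 shared falls with the largest smaller effect, up to 2 shared members per list, genes past the difference test, and a preset set. Because only 1 gene without a symbol passed that test, 10 genes each way with the largest gap between the treated groups were added. These were past the treated comparison and had treated groups that did not overlap, by choice. Their difference of the effects had the same sign and an unadjusted p under 0.05 (limma). A further 55 list members were named after their values were seen. The alternatives tried were scaling, filter, pseudocount, prior, trend, library weights, a fit of only the 4 groups, a replicate block, and leaving out libraries.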

Additional observations from a re-analysis of the deposited data

Results flagged for a closer look

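ENSG00000252236, a small nucleolar RNA gene, had an effect of 1.25 µM at 24 h that lay −2.86 (log2) from the effect of 0.63 µM at 48 h, by the test of the difference itself. It was at 4.22, 7.13 and 8.05 TPM in untreated 24 h cells and at 0 in the other 9 libraries compared. Small nucleolar RNAs have no poly(A) tail, while the kit primes on poly(A), and the part of this in the value was not tested.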

How the results depend on the processing

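The 1688 calls at 1.25 µM, 1140 at 48 h and 569 shared calls moved by less than 1.5 times with median-of-ratios scaling, quantile normalization, rescaling without the 20 most abundant genes, both filters, both pseudocounts, the robust prior, no mean-variance trend and the fit of only the 4 groups. Without both untreated 24 h replicates 2 and 3, which leaves 1 untreated library assumed to vary like the other groups, there were 493 calls at 1.25 µM, 296 shared calls, 1 opposite, 0 differences, 1244 between treated groups and 0 between untreated groups. Library weights gave 2312 calls at 48 h, 893 shared, 7 opposite, 28 differences, 1266 between treated and 4 between untreated groups. Among named genes, ALG13, BAX, SEC61G, CEP152 and BCL2L2 passed the test of the difference with library weights only. The filter of 5 TPM gave 0 differences, 2 opposite, 0 between untreated groups and r of 0.516; no filter gave 3 differences and 6 between untreated groups. A pseudocount of 0.1 TPM gave 0 differences, 2 opposite, 1 between untreated groups and r of 0.337, and 5 TPM gave r of 0.549. The fit of only the 4 groups gave 0 differences and 1 opposite, median-of-ratios scaling 2 opposite and quantile normalization 1. The cause of these shifts was not tested. With 1 library left out in turn, the calls ranged from 960 to 1677 at 1.25 µM, 557 to 1542 at 48 h, 0 to 3 for the difference, 347 to 620 shared, 0 to 4 opposite, 284 to 1323 between treated groups and 1 to 3 between untreated groups, and r from 0.415 to 0.461. Of the calls and differences of named genes that were recomputed, none reversed: 80 of 133 calls at 1.25 µM and 92 of 122 at 48 h kept their side of the threshold in all of them, and 23 at 1.25 µM changed only without both untreated 24 h replicates. The main fit did not pair libraries by replicate number. Same-numbered libraries deviated from their groups with r of −0.00227, 0.0145 and 0.0795 at 24 h and 0.0586, −0.0158 and 0.0785 at 48 h. Differently numbered libraries gave −0.0632 to 0.0504 at 24 h and −0.103 to 0.0552 at 48 h. The pair of replicates 3 was the highest at each time. Such values from groups of 3 cannot show that the libraries are unpaired. With the replicate block 753 genes rose and 1014 fell at 1.25 µM, 322 rose and 950 fell at 48 h, 646 were shared, 1 difference passed and 2 were opposite. Depth is unknown, and the median half-width of 1.04 limits what the difference can show.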

Other observations

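Further groups moved with the exposures. Of 24 secreted cytokines and growth factors, 7 rose and 4 fell at 1.25 µM, 7 rose at 48 h and 4 rose in both. The falls at 1.25 µM numbered 1 or 2 without any 1 library of that group or untreated 24 h replicate 2. BMP2, a bone morphogenetic protein, was at 2.47, 2.9 and 3.88 TPM untreated and 19.51, 15.83 and 16.36 TPM after 1.25 µM, and at 3.8, 2.73 and 5.1 TPM untreated and 13.02, 11.86 and 12.41 TPM after 0.63 µM for 48 h. LIF, a cytokine that signals through STAT3, was at 0.79, 0.06 and 1.17 TPM untreated and 6.75, 10.33 and 6.83 TPM after 1.25 µM, and at no more than 2.21 TPM in any library at 48 h. Its effects were 2.46 and 0.72, with an interval of the difference of 0.44 to 3.04.

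Lineage genes of melanoma moved in part. Of 10 melanocyte lineage genes measured, 2 fell in both exposures and 0 rose in either, with medians of 0.47 and −0.21. The median at 1.25 µM thus lay above 0, unlike the effect on MITF. With median-of-ratios or quantile values 1 of the 10 fell at 1.25 µM. MITF, the master regulator of melanocytes, was at 16.61, 13.53 and 16.8 TPM untreated and 6.99, 4.14 and 14.19 TPM after 1.25 µM. At 48 h MITF was at 16.53, 16.12 and 15 TPM untreated and 4.93, 4.41 and 2.87 TPM treated. It fell at 48 h (−1.76), a call kept in all 25 alternatives. The effect at 1.25 µM was −0.96 with an adjusted p of 0.0498 (limma), and that call was lost in 19 of 25 alternatives, both rescalings included, with an adjusted p of 0.216 without replicate 2 of that group. SOX10, the neural crest factor upstream of MITF, passed in neither (0.66 and −0.28). Of 22 genes of dedifferentiated melanoma, 5 rose and 7 fell at 1.25 µM, and 3 rose and 2 fell at 48 h, all 5 shared; without replicate 3 of the 1.25 µM group 3 fell there. The nerve growth factor receptor NGFR (1.35 and 0.98) and the EGF receptor EGFR (0.88 and 0.87) were among those that rose in both, and those that fell were CAV1 and THBS1.

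Of 30 proteasome subunits, 8 fell and 1 rose at 1.25 µM and 7 fell at 48 h, 3 in both, with medians of −0.34 and −0.44, and 1 fell at 48 h with median-of-ratios or quantile values, without 0.63 µM replicate 3, or without untreated 48 h replicate 1 or 2. The 13 transcripts of mitochondrial DNA had medians of 0.62 and 0.16. The first was 0.47 without untreated 24 h replicate 2 and 0.08 without untreated 24 h replicates 2 and 3. The second was 0.37 with median-of-ratios values, 0.36 with quantile values and 0.31 without 0.63 µM 48 h replicate 3. Of the 13, 3 rose at 1.25 µM and 2 at 48 h, both shared. With 1 library left out these rises ranged from 2 to 6 and from 1 to 2. MT-ND4L was at 2166, 1248 and 1474 TPM untreated and 4143, 4081 and 3122 TPM after 1.25 µM, and at 1466, 1279 and 1430 TPM untreated and 2734, 2766 and 2374 TPM after 0.63 µM for 48 h (1.24 and 0.91). It overlaps MT-ND4 on the mitochondrial genome, so the split of reads between them is uncertain. IGHVII-44-2, annotated as an immunoglobulin pseudogene, was at 20.03, 32.55 and 5.38 TPM untreated, 0 in all 3 libraries at 1.25 µM, and 13.59 to 21.57 TPM in every library at 48 h.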
